A study of Mus musculus with 59 samples.

Results

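Pcdh11x, Sgcz, Gria3 and F13a1 were examined as the 4 members of a set of 51562 genes present in every table used. They were chosen by their measured levels, very high in Daxx F/F libraries whose labels give no time after induction, here called untimed, in KLS cells, GMPs or both. The working description of the set as genes out of place in these cells did not hold for all 4. Gria3 and F13a1 were abundant in Daxx +/+ GMPs, and F13a1 was lower, not higher, in untimed Daxx F/F GMPs, so the genes are referred to by name only. Because the untimed Daxx comparison chose them, its values for these genes are a description without a test. The tests come from 8 comparisons at 3 weeks post induction (3 w.p.i.) that did not enter the choice.

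Daxx is a histone chaperone that deposits the variant histone H3.3 together with Atrx and takes part in keeping repeats and some genes silent. Pu.1, encoded by Spi1, is an ETS-family transcription factor that drives myeloid and lymphoid programmes from haematopoietic stem and progenitor cells. The KLS gate (lineage-negative, Kit+, Sca-1+) holds stem cells and multipotent progenitors, and GMPs are the granulocyte and macrophage progenitors below it. Among the 4 genes, Pcdh11x encodes an X-linked protocadherin, a homophilic adhesion molecule known mainly from the nervous system. Sgcz encodes zeta-sarcoglycan, a transmembrane subunit of the dystrophin-associated complex described in muscle. Gria3 encodes a subunit of AMPA-type glutamate receptors, the ion channels of fast excitatory synapses. F13a1 encodes the A subunit of coagulation factor XIII, a transglutaminase that cross-links fibrin and is made by platelets and by cells of the monocyte and macrophage lineage.

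Bulk RNA-seq of bone marrow cells of C57BL/6 mice was analysed in 32 libraries of 14 groups. Every group carried Cre +/-, controls included. The untimed groups were Daxx F/F and Daxx +/+, with 2 libraries each in KLS cells and in GMPs, and their labels name no mouse line. The 3 w.p.i. groups, of the line Mx1Cre, were Daxx F/F and Daxx +/+ (3 libraries each per cell type), Daxx F/F Pu.1 F/F, here DKO (2 each), and Pu.1 F/F and Pu.1 +/+ (2 each). Mx1Cre is switched on by interferon, which pI:pC injection elicits, so deletion is not limited to blood cells and the controls received the same induction. For all libraries the labels name the Ovation SoLo kit. The study's methods use that kit for donor cells of transplanted animals and a SMARTer kit for cells collected at steady state from induced mice. Time, transplantation and kit therefore cannot be told apart in any contrast of untimed with 3 w.p.i. libraries. The study describes KLS and GMP RNA-seq with no time after induction only for the transplanted animals. The untimed libraries may be that set, though their labels give no time or mouse line. No animal age is given in the labels, and only the KLS 3 w.p.i. labels of the Daxx line carry animal numbers. The column names of all 3 w.p.i. tables carry them, with the same numbers for KLS cells and GMPs, so the results of the 2 cell types come from the same animals and are not separate replication. P-values therefore measure the spread between these libraries. In bulk samples fewer cells of a type and less RNA per cell cannot be told apart.

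The genes lie on 3 chromosomes (GRCm38, GENCODE M21). Pcdh11x (ENSMUSG00000034755.18) spans 620 kb at chrX:120290259-120910619 on the plus strand, and Gria3 (ENSMUSG00000001986.16) spans 278 kb at chrX:41400854-41678601 on the same strand. Sgcz (ENSMUSG00000039539.13) spans 1139 kb at chr8:37522298-38661508 on the minus strand, with only 3.03 kb of exons. F13a1 (ENSMUSG00000039109.16) spans 183 kb at chr13:36867178-37050244 on the minus strand. The values are per gene and do not separate exonic from intronic reads. Of the 4 genes, 1 has a promoter in the RefSeq table used here (GRCm38.p6), namely F13a1. Its window of 250 bases before the annotated start, chr13:37050245-37050494 on the minus strand, is shown because it holds the core motif read by Pu.1, GAGGAA, in capitals:
F13a1 promoter: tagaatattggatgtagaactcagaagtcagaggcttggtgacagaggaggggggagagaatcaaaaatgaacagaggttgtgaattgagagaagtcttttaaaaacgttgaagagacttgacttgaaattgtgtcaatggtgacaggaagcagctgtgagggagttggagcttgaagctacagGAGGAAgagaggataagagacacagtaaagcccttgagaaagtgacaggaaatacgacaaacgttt
GAGGAA begins 66 bases before the start, and GATAAG begins 55 bases before it. Searched on both strands, GAGGAA was present in 23.3% and GATAAG in 6.55% of 32851 promoter windows of this length, so a match alone is a description. Also searched were TATAAA, absent from this window and present in 12.4% of windows, and CCAAT, found here on the opposite strand and in 33.8% of windows. In a second annotated F13a1 window, chr13:37049214-37049463, none of these 4 strings occurred.

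Recovered reads ranged from 3388906 to 22647397 per library. Daxx, the targeted gene, lay between 3.24 and 7.43 CPM (recovered reads of the gene per 1000000 reads of the library) in every Daxx F/F and DKO library and at 17.9 or more in every Daxx +/+ library. Spi1 did not check the Pu.1 labels. In KLS cells Spi1 was at 220 and 219 CPM in the libraries labelled DKO against 126, 127 and 175 in Daxx +/+. There it was called higher, not lower, than in Daxx +/+ (log2 fold change 0.76 ± 0.17 SE, limma adjusted p = 0.0155) and Daxx F/F (1.03 ± 0.17, limma adjusted p = 0.00346). The source of this rise was not tested. In the Pu.1 line Spi1 was not called lower in KLS cells (log2 fold change -0.30 ± 0.64 SE, limma adjusted p = 0.747) or GMPs (-0.46 ± 0.24, limma adjusted p = 0.153). Which Spi1 exons the floxed allele removes is not given in the sources used here, so reads outside the deleted part may remain, and these libraries are called by their labels. The Pu.1-line libraries stand apart from the others. They list 24539 to 30291 genes above 0, against 17066 to 22416 elsewhere, and the median of 228 protein-coding genes of 500 kb or more was 24.8 to 366 CPM in them and 2.36 to 19.9 CPM in the other libraries.

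Pcdh11x was close to the floor of detection in untimed Daxx +/+ cells and among the most abundant transcripts of untimed Daxx F/F GMPs. In KLS cells it was at 8.04 and 1.27 CPM in Daxx +/+ and at 287 and 411 CPM in Daxx F/F, a ratio of means of 75.1. In GMPs the 2 Daxx +/+ libraries were at 3.64 and 4.95 CPM and the 2 Daxx F/F libraries at 4659 and 5777 CPM, a ratio of 1214. The high and low libraries were separated in both cell types, and the log2 fold change of 10.32 in GMPs ranked 1 of 12744 genes, with Strc next at 9.16. In KLS cells its log2 fold change of 6.70 ranked 13 of 13508 genes, between Gm15581 (7.07) and Ckmt1 (6.69).

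Sgcz behaved alike in direction, with its higher level in KLS cells. It was at 20.2 and 3.30 CPM in untimed Daxx +/+ KLS cells and at 1671 and 1456 CPM in Daxx F/F, a ratio of 133. In GMPs the corresponding levels were 2.23 and 5.94 CPM against 802 and 809 CPM, a ratio of 197. No Daxx F/F library overlapped a Daxx +/+ library, and the log2 fold changes of 7.58 in KLS cells and 7.84 in GMPs ranked 7 and 3. Its neighbours by rank were Npy (8.04) and Gm9655 (7.27) in KLS cells, and Strc and Gm35572 (7.63) in GMPs.

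Gria3 was already expressed in Daxx +/+ cells. In KLS cells it stood at 174 and 198 CPM in untimed Daxx +/+ and at 2608 and 2737 CPM in Daxx F/F, a ratio of 14.4. In GMPs it stood at 1211 and 1153 CPM in Daxx +/+ and at 1918 and 2026 CPM in Daxx F/F, a ratio of 1.67. Its log2 fold change was thus 3.89 in KLS cells (rank 67) and 0.86 in GMPs (rank 1306), higher in every Daxx F/F library of both.

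F13a1 went opposite ways in the 2 cell types. Untimed Daxx +/+ KLS cells held 28.3 and 5.33 CPM and Daxx F/F KLS cells 1557 and 1899 CPM, a ratio of 103 and a log2 fold change of 7.15 (rank 10, between F730016J06Rik at 7.22 and C3 at 7.12). Untimed Daxx +/+ GMPs held 1292 and 1336 CPM and Daxx F/F GMPs 728 and 712 CPM, 1.82 times less in Daxx F/F. The log2 fold change in GMPs was -0.75, at rank 10958 of 12744. These comparisons called 23.1% of genes in KLS cells and 33% in GMPs (limma adjusted p under 0.05), and every Daxx F/F library exceeded every Daxx +/+ library for 32.9% and 33.1% of genes. Every Daxx F/F GMP library was below every Daxx +/+ one for 34.1%. These shares are given for scale only, since these contrasts chose the 4 genes.

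**Figure D1:**
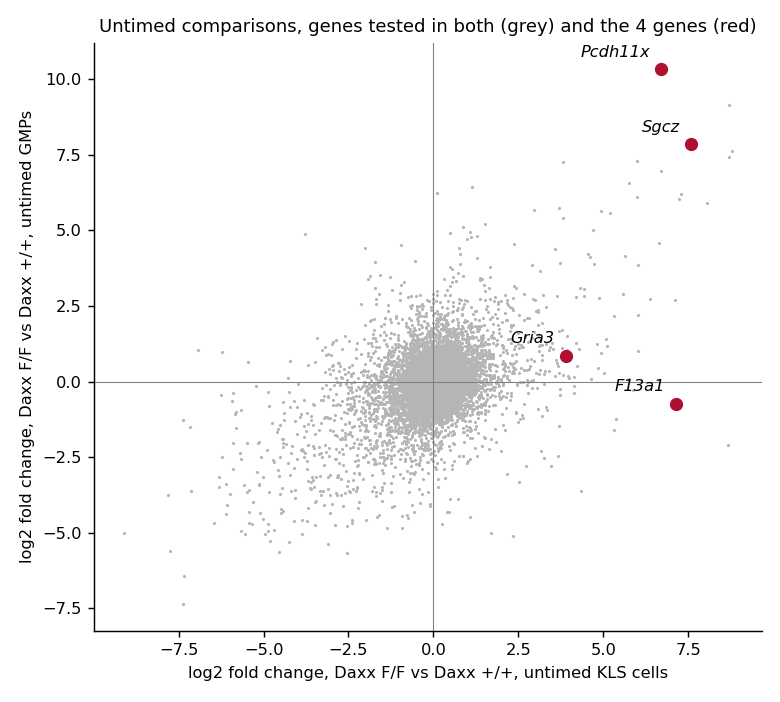
Each grey point is 1 of 12230 genes tested in both untimed tables, with the log2 fold change of Daxx F/F over Daxx +/+ in KLS cells on the x axis and in GMPs on the y axis, and the 4 genes in red. Pcdh11x (6.70 and 10.32) and Sgcz (7.58 and 7.84) lie in the upper right corner, Gria3 (3.89 and 0.86) near the x axis, and F13a1 (7.15 and -0.75) below it.

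Pcdh11x and Sgcz were among 8 genes of the 12230 with a log2 fold change above 6 in both untimed comparisons, a limit set after the values were seen. The others were Ckmt1, F730016J06Rik, Fbp2, Gm35572, Gm9655 and Strc. Per kilobase of exon, mean levels in untimed Daxx F/F KLS cells were 517 CPM for Sgcz, 271 for Gria3, 256 for F13a1 and 25.1 for Pcdh11x. On that scale Sgcz ranked 14, Gria3 37 and F13a1 39 among 11774 protein-coding genes there, where in Daxx +/+ they ranked 7977, 2494 and 9053. In untimed Daxx F/F GMPs the order per exonic kilobase was Pcdh11x (374 CPM), Sgcz (266), Gria3 (200) and F13a1 (107), with ranks of 34, 47, 66 and 191 among 11098 genes. Per kilobase of the whole gene these ranks were far lower, 7570 for Sgcz and 737 for Pcdh11x in GMPs, because both genes are long.

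Over the 14 groups the 4 genes had different orders of level. CPM was taken from each library's own total, and each table has size factors of its own, so levels across tables are set side by side without a test. Pcdh11x was highest in untimed Daxx F/F GMPs at 5218 ± 791 CPM (SD, n = 2), then in KLS cells labelled DKO at 567 ± 13.9 (n = 2), in untimed Daxx F/F KLS cells at 349 ± 87.7 (n = 2) and in GMPs labelled DKO at 145 ± 156 (n = 2). These 4 groups did not overlap each other, but the spread of the GMPs labelled DKO reached down into the Pu.1 F/F KLS libraries. From KLS Pu.1 +/+ (10.8 ± 6.61, n = 2) down to GMP Daxx +/+ at 3 w.p.i. (1.55 ± 0.183, n = 3), the groups overlapped from each to the next.

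Sgcz was highest in untimed Daxx F/F KLS cells (1564 ± 152 CPM, n = 2) and GMPs (806 ± 4.57, n = 2). The 4 Pu.1-line groups followed, from 293 ± 272 in KLS Pu.1 F/F to 25.4 ± 9.07 in GMP Pu.1 +/+ (SD, n = 2 each). The remaining 8 groups had means between 2.29 and 11.8 CPM and overlapped from each to the next. KLS cells labelled DKO, where Pcdh11x was second highest, held 1.90 and 3.67 CPM of Sgcz, so Pcdh11x was high there without Sgcz, whereas both were high in the 4 untimed Daxx F/F libraries.

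Gria3 peaked in untimed Daxx F/F KLS cells (2673 ± 90.9 CPM, n = 2), followed by untimed Daxx F/F GMPs (1972 ± 76.3) and untimed Daxx +/+ GMPs (1182 ± 40.5), none of which overlapped. Its lowest groups were KLS Pu.1 F/F (124 ± 24.9, n = 2) and KLS cells labelled DKO (65.8 ± 31.5, n = 2). F13a1 was also highest in untimed Daxx F/F KLS cells at 1728 ± 242 CPM (n = 2). That level overlapped those of GMPs at 3 w.p.i. labelled DKO (1546 ± 457, n = 2) and Daxx +/+ (1448 ± 432, n = 3), and 7 of the 8 highest groups were GMPs. The lowest F13a1 groups were untimed Daxx +/+ KLS cells (16.8 ± 16.2, n = 2) and KLS cells labelled DKO (11.2 ± 3.80, n = 2), which overlapped.

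**Figure D2:**
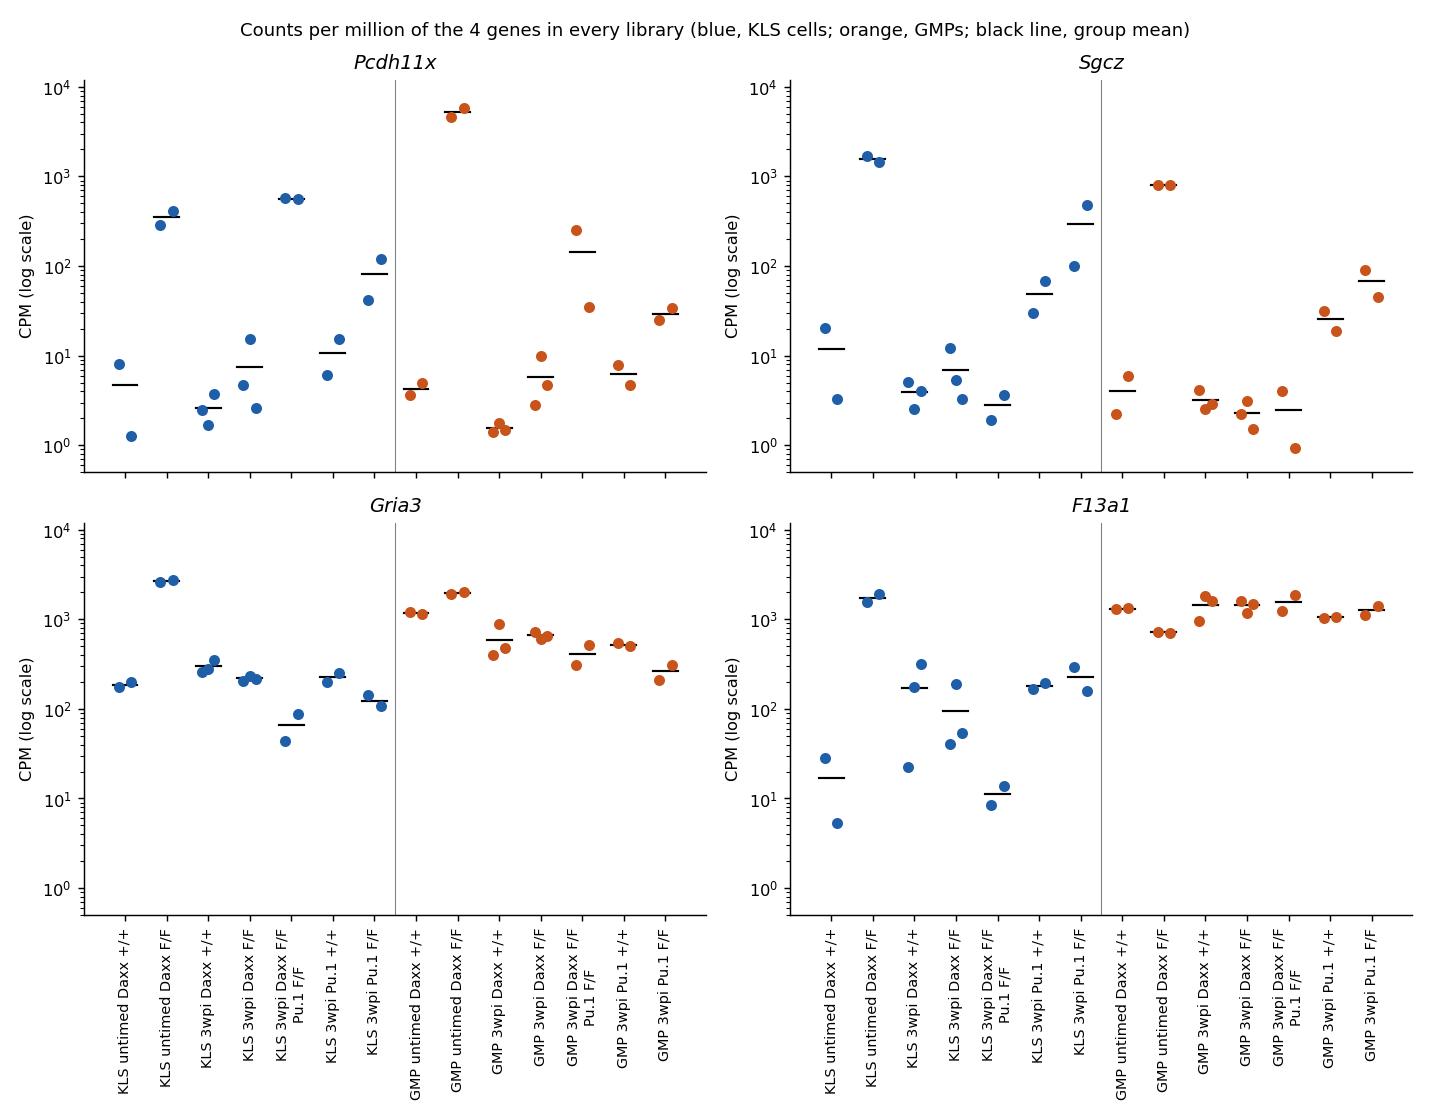
Each point is 1 library, with CPM on a log axis and the 14 groups along the x axis (blue, KLS cells; orange, GMPs), and each black line is the group mean. Pcdh11x and Sgcz stand at 287 to 5777 CPM in untimed Daxx F/F libraries, Pcdh11x also at 557 and 577 CPM in KLS cells labelled DKO, while every GMP library is at 213 CPM or more for Gria3 and 712 CPM or more for F13a1.

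At 3 w.p.i., loss of Daxx alone called none of the 4 genes in KLS cells, in a comparison that called 39 of 15200 genes (0.257%). None of the 4 passed at an unadjusted p under 0.05 in limma, and neither edgeR nor DESeq2 called any. Pcdh11x was at 4.74, 15.2 and 2.62 CPM in the 3 Daxx F/F libraries and at 2.45, 1.68 and 3.69 CPM in the 3 Daxx +/+ libraries, which overlapped. Its log2 fold change was 1.18 ± 0.57 (SE; 95% interval -0.08 to 2.44; limma adjusted p = 0.454), where the untimed value was 6.70. Sgcz, at 12.3, 5.41 and 3.28 CPM against 5.14, 2.55 and 3.99 CPM, also overlapped. Its log2 fold change of 0.67 ± 0.53 (95% interval -0.52 to 1.85; limma adjusted p = 0.658) compares with 7.58 in the untimed cells. The difference between the untimed and 3 w.p.i. values was not tested, since the untimed contrast chose the genes.

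Gria3 was lower in every Daxx F/F KLS library at 3 w.p.i., opposite in direction to the untimed cells, but it was not called. The Daxx F/F libraries held 206, 232 and 218 CPM and the Daxx +/+ libraries 256, 281 and 355 CPM, and 9.16% of genes were likewise lower in every Daxx F/F library. The log2 fold change was -0.44 ± 0.22 (limma adjusted p = 0.462). F13a1 varied too widely between libraries for a difference to be seen, at 40.5, 188 and 53.7 CPM in Daxx F/F and 22.3, 177 and 317 CPM in Daxx +/+. Its log2 fold change of -0.55 ± 0.88 (95% interval -2.51 to 1.41; limma adjusted p = 0.844) turned to 0.23 without the unnumbered Daxx +/+ library. Monocyte and macrophage markers, which mark cells that make F13a1, summed to 622 CPM in that library and to 155 and 207 CPM in the other 2 Daxx +/+ libraries. Their part in the spread of F13a1 was not tested.

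In GMPs at 3 w.p.i. Daxx loss also called none of the 4 genes, with 13 of 13714 genes called (0.0948%). Neither edgeR nor DESeq2 called any of the 4, and Pcdh11x alone had an unadjusted limma p under 0.05. Pcdh11x was at 2.79, 9.89 and 4.75 CPM in Daxx F/F and at 1.41, 1.76 and 1.48 CPM in Daxx +/+. Every Daxx F/F library was higher, as for 4.64% of genes, and the log2 fold change was 1.62 ± 0.68 (95% interval 0.11 to 3.13; limma adjusted p = 1.00). Sgcz stayed at 1.53 to 3.10 CPM in Daxx F/F and 2.56 to 4.15 CPM in Daxx +/+, with a log2 fold change of -0.54 (95% interval -1.83 to 0.74). Gria3 (log2 fold change 0.18, 95% interval -0.47 to 0.84) and F13a1 (-0.04, 95% interval -0.68 to 0.60) had wide overlap, at 606 to 729 against 403 to 893 CPM and at 1174 to 1614 against 965 to 1797 CPM.

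In KLS cells labelled DKO, Pcdh11x rose and Gria3 fell. Pcdh11x was at 577 and 557 CPM in the DKO libraries, against 1.68 to 3.69 CPM in Daxx +/+ and 2.62 to 15.2 CPM in Daxx F/F, with no overlap. The ratio of means was 218 to Daxx +/+ (log2 fold change 7.91 ± 0.63; limma adjusted p = 0.000183) and 75.4 to Daxx F/F (6.73 ± 0.63; limma adjusted p = 0.000261). These counts rest on 9121 and 7888 reads of Pcdh11x in the DKO libraries. The comparisons called 17.6% and 15.4% of all genes (9.24% and 8.17% higher, 8.4% and 7.22% lower), and each called 2 of the 4. The DKO libraries lay above every Daxx +/+ library for 26% of genes and above every Daxx F/F library for 22.3%. They lay below every Daxx +/+ library for 23.7% and below every Daxx F/F library for 22.3%. The share above or below both groups at once was not computed. The 3 comparisons of the Daxx line within a cell type share libraries.

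Gria3 was at 43.5 and 88.1 CPM in KLS cells labelled DKO, below every Daxx +/+ library (256 to 355 CPM) and every Daxx F/F library (206 to 232 CPM). It was 4.52 times lower than in Daxx +/+ (log2 fold change -2.13 ± 0.24; limma adjusted p = 0.000701) and 3.32 times lower than in Daxx F/F (-1.69 ± 0.24; limma adjusted p = 0.00165). F13a1 was at 8.47 and 13.8 CPM, lower than every Daxx +/+ (22.3 to 317) and Daxx F/F (40.5 to 188) library. Against Daxx +/+ its log2 fold change was -3.19 ± 0.98 (95% interval -5.38 to -0.99; limma adjusted p = 0.0506), just short of the threshold, and it passed with other tools (edgeR 0.0454, DESeq2 0.00603 as adjusted p), as it did in limma without Daxx +/+ library 1 (adjusted p = 0.00801) or Daxx F/F library 2 (0.0383) and with the replicate number as a block (-2.41; 0.0107). Against Daxx F/F it was -2.64 ± 0.98 (limma adjusted p = 0.106), or 0.0233 without Daxx +/+ library 1. It was also called with the replicate number as a block (-2.89; limma adjusted p = 0.00603) and by DESeq2 (adjusted p = 0.0460), although the numbers did not pair the libraries. The fit with the block also left out the unnumbered Daxx +/+ library, so its calls of F13a1 cannot be credited to blocking alone. Sgcz was not called, with log2 fold changes of -0.37 ± 0.59 (95% interval -1.69 to 0.95) and -1.04 ± 0.59 (-2.36 to 0.28).

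GMP markers were higher and KLS markers lower in the same KLS libraries labelled DKO. The 10 GMP markers, among them the granule genes Mpo, Elane, Prtn3 and Ctsg, summed to 7696 and 8857 CPM there against 1814 to 4410 in Daxx +/+. Of these markers 3 were called higher and 1 lower against Daxx +/+. The 10 KLS markers summed to 1797 and 2606 CPM against 4866 to 6945, with 0 called higher and 5 lower. Kit and Cd34 stand in both marker lists, so the sums are not separate measures. The fall of Gria3 thus stood beside a higher summed level of GMP markers, although in Daxx +/+ cells of the same line Gria3 was at 403 to 893 CPM in GMPs and 256 to 355 CPM in KLS cells. Late neutrophil markers, 8 genes among them S100a8, Ltf and Camp, summed to 10119 and 11201 CPM in the DKO libraries against 40.3 to 2136 in Daxx +/+ and 74.4 to 463 in Daxx F/F. Of the 8, 3 were called higher against Daxx +/+ and 6 against Daxx F/F, with 0 lower in either. Whether cell makeup contributed to these differences was not tested.

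In GMPs labelled DKO, from the animals of the KLS libraries by their column names, Pcdh11x was higher than in Daxx +/+. Its 2 DKO libraries held 255 and 34.8 CPM, against 1.41 to 1.76 CPM in Daxx +/+ and 2.79 to 9.89 CPM in Daxx F/F. Against Daxx +/+ the log2 fold change was 5.84 ± 0.76 (limma adjusted p = 0.0210), in a comparison that called 0.292% of genes, 0.211% higher, and in which the DKO libraries lay above every Daxx +/+ library for 10.1% of genes. That call was lost without Daxx +/+ library a (0.0809), b (0.0737) or c (0.0686), without DKO library a (0.105) and without Daxx F/F library c (0.0521), all limma adjusted p, while the log2 fold change stayed between 4.42 and 7.27. Against Daxx F/F, where 0.0583% of genes were called and 10.7% lay above and 9.98% below without overlap, it was 4.22 ± 0.76 (limma adjusted p = 0.0981), and DESeq2 called it (adjusted p = 8.79e-05), as did limma without DKO library b (adjusted p = 0.0169). Gria3 was at 307 and 516 CPM, below the 606 to 729 CPM of Daxx F/F but within the range of Daxx +/+, with log2 fold changes of -0.69 ± 0.33 (limma adjusted p = 0.681) and -0.50 ± 0.33. Sgcz (4.04 and 0.925 CPM) and F13a1 (1223 and 1869 CPM) were not called in GMPs labelled DKO, whose F13a1 level overlapped both other groups.

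**Figure D3:**
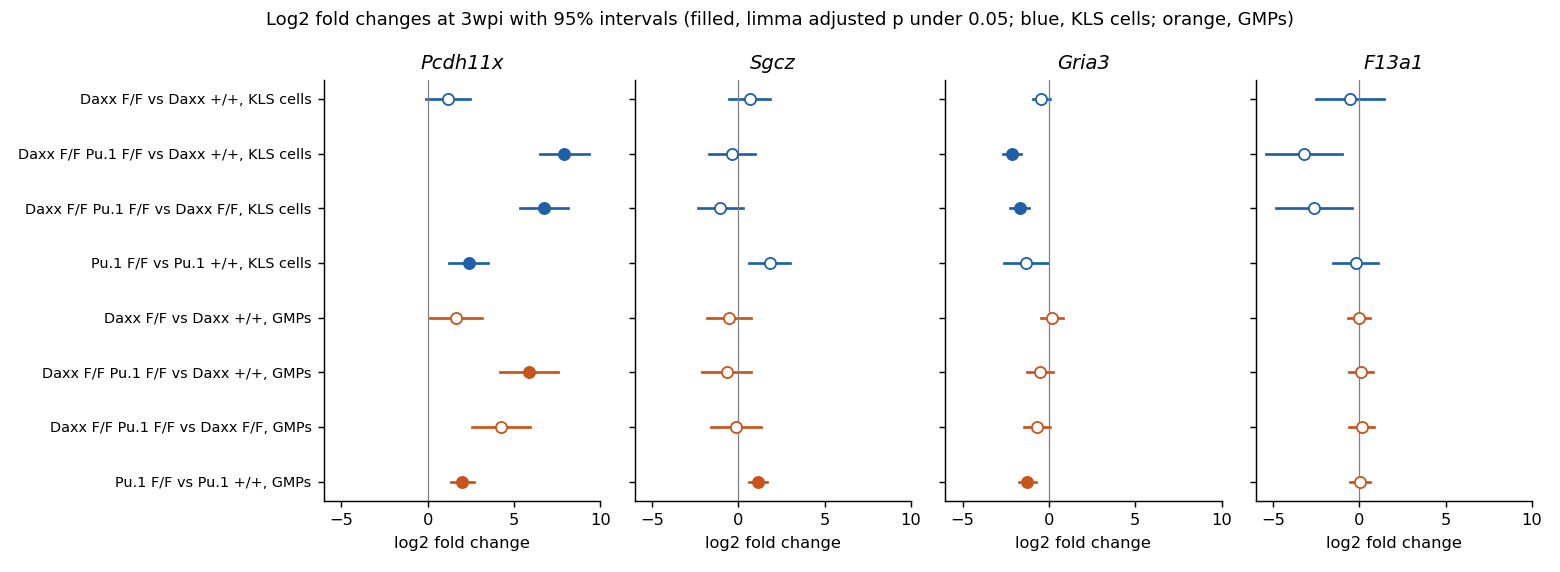
Points are log2 fold changes of the 4 genes in the 8 comparisons at 3 w.p.i. and lines are their 95% intervals, filled where the limma adjusted p was under 0.05 (blue, KLS cells; orange, GMPs). Pcdh11x lies right of 0 in all 8 and is filled in 5, Gria3 is filled left of 0 in 3, Sgcz is filled in 1, and F13a1 in none.

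In the Pu.1 line, Pcdh11x rose in KLS cells and GMPs of the libraries labelled Pu.1 F/F, while Sgcz rose and Gria3 fell in GMPs. Pcdh11x in KLS cells was at 6.14 and 15.5 CPM in Pu.1 +/+ and 41.3 and 121 CPM in Pu.1 F/F. Its log2 fold change was 2.38 ± 0.58 (limma adjusted p = 0.0190), where 0.81% of genes were called, 0.469% higher, and where 33.7% lay higher and 31.9% lower without overlap. The call was lost without Pu.1 +/+ library a (0.967) or b (0.208) and without Pu.1 F/F library b (0.179), as limma adjusted p. In GMPs Pcdh11x was at 7.95 and 4.67 CPM against 24.8 and 33.7 CPM, a log2 fold change of 2.00 ± 0.33 (limma adjusted p = 3.46e-07), where 17.6% of genes were called (9.15% higher, 8.49% lower) and 31.5% lay higher and 33.5% lower without overlap.

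Sgcz was at 30.2 and 68.5 CPM in KLS Pu.1 +/+ and 101 and 486 CPM in Pu.1 F/F (log2 fold change 1.81 ± 0.61; limma adjusted p = 0.0726). In GMPs it was at 31.8 and 19.0 CPM against 91.2 and 45.6 CPM (1.15 ± 0.26; limma adjusted p = 0.000395). Gria3 in KLS cells was at 201 and 252 CPM in Pu.1 +/+ and at 142 and 106 CPM in Pu.1 F/F, not overlapping but not called (-1.34 ± 0.65; limma adjusted p = 0.176). In GMPs Gria3 fell from 537 and 499 CPM to 213 and 311 CPM (-1.25 ± 0.25; limma adjusted p = 4.54e-05). F13a1 was not called in KLS cells (167 and 196 against 290 and 160 CPM) or in GMPs (1045 and 1071 against 1129 and 1423 CPM; 0.02 ± 0.30). Without Pu.1 +/+ library b of the GMPs, none of the 3 GMP calls remained (limma adjusted p 0.0837, 0.586 and 0.403 for Pcdh11x, Sgcz and Gria3), and without Pu.1 +/+ library a that of Gria3 was lost (0.175). Without Pu.1 F/F library a, F13a1 was called in GMPs (0.35; limma adjusted p = 0.0214), and in KLS cells Sgcz (2.71; 0.000724) and Gria3 (-1.78; 0.00850) were.

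In the libraries labelled Pu.1 F/F, long genes in general had higher values, beside those of Pcdh11x and Sgcz. Of 224 protein-coding genes of 500 kb or more tested in its GMPs, these genes included, 162 were called higher and 10 lower, with a median log2 fold change of 0.91 beside -0.00 for all genes tested. In its KLS cells 187 of 224 had a positive log2 fold change, with a median of 1.55 beside 0.12 over all genes, and 4 were called. Sgcz ranked 58 to 156 and Pcdh11x 167 to 224 of 228 long genes by CPM in the Pu.1-line libraries. In untimed Daxx F/F libraries Sgcz ranked between 5 and 16 and Pcdh11x between 1 and 28. These levels chose the genes, so the high ranks follow from the choice. The long genes had a median log2 fold change of -1.29 in untimed KLS cells and -0.25 in untimed GMPs. The part of gene length in the untimed values was not tested. In the libraries labelled DKO Pcdh11x ranked 14 and 15 in KLS cells and 20 and 43 in GMPs. Pu.1 F/F library a also held Y-linked transcripts, with Ddx3y at 78.1 CPM in KLS cells and 53.5 CPM in GMPs, at most 0.523 CPM in Pu.1 +/+. KLS Pu.1 F/F library b held less, with Uty at 30.8 CPM (141 in library a, at most 5.55 in KLS Pu.1 +/+) and Kdm5d at 10.9 CPM (at most 3.82). GMP Pu.1 F/F library b, with Uty at 2.33 CPM, lay within the range of GMP Pu.1 +/+ for that gene. Its Ddx3y, at 0.865 CPM, lay above the 0.477 and 0.187 CPM of GMP Pu.1 +/+. The calls over all genes in the Pu.1-line KLS comparison were 57.9% higher as deposited and 74.5% higher after TMM rescaling. Late neutrophil markers summed to 12875 and 16221 CPM in GMPs labelled Pu.1 F/F against 2103 and 2760 in Pu.1 +/+, with 8 of 8 called higher, and the 10 GMP markers to 10475 and 14860 against 20267 and 21084 CPM, with 1 higher and 6 lower. In KLS cells late neutrophil markers summed to 5445 and 8193 against 1490 and 2179 CPM with 0 called by limma, and KLS markers to 1365 and 2379 against 3564 and 3687 CPM with 1 of 10 lower. The part of long genes, sex, scaling and other cells in the Pu.1-line values was not tested.

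**Figure D4:**
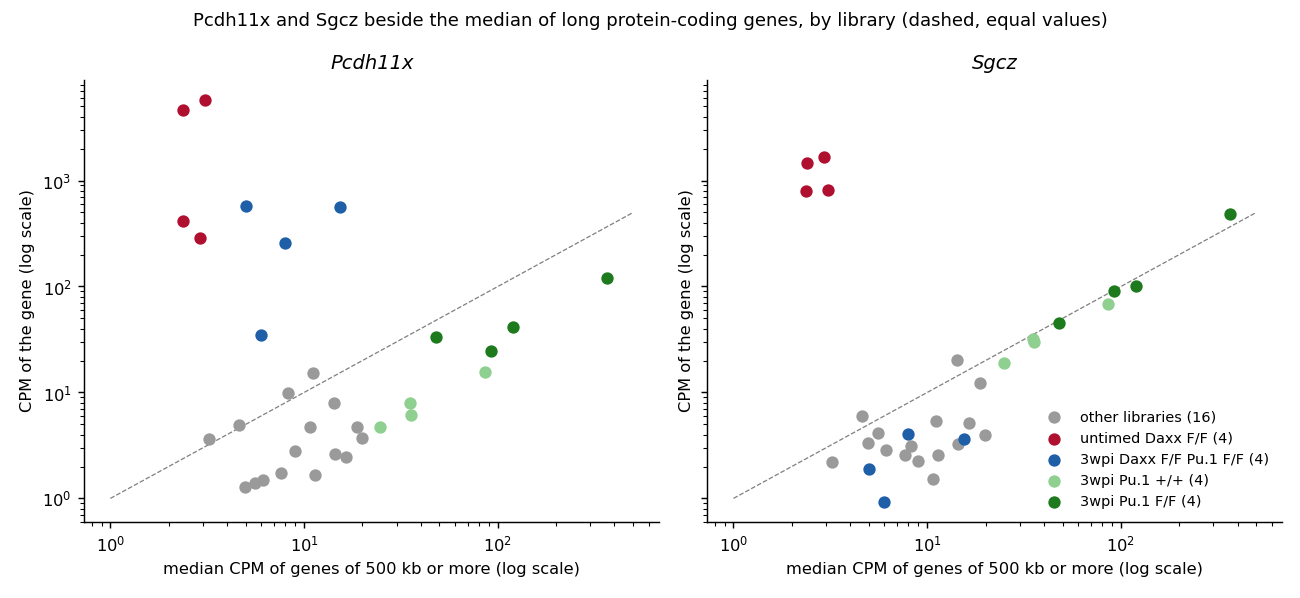
Each point is 1 of 32 libraries, with the median CPM of 228 protein-coding genes of 500 kb or more on the x axis and the CPM of Pcdh11x (left) or Sgcz (right) on the y axis, both on log scales, and a dashed line of equal values. In the Pu.1 line Sgcz lies near the dashed line. Untimed Daxx F/F libraries (red), whose levels chose the genes, have long-gene medians of 2.36 to 3.09 CPM and lie far above that line for both genes.

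Of 11 non-clustered protocadherins other than Pcdh11x, 3 were tested in untimed KLS cells, where 0 were called higher and 2 lower. Pcdh7, an adhesion molecule of the same family, fell from a mean of 370 to 2.70 CPM (log2 fold change -7.13 ± 0.38; limma adjusted p = 8.16e-06), and in untimed GMPs it fell by 3.61 on the log2 scale, from 37.1 to 2.72 CPM. In KLS cells labelled DKO, where Pcdh11x was high, Pcdh7 was higher than in Daxx F/F by a log2 fold change of 0.87 (limma adjusted p = 0.0493). In the Pu.1 line Pcdh9 was called higher in KLS cells (2.07) and Pcdh15 and Pcdh9 in GMPs (1.11 and 0.84). The median of the list was -1.90 in untimed KLS cells and -0.33 in untimed GMPs, beside 0.03 and -0.01 for all genes.

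Of 16 genes of the sarcoglycan and dystrophin complex, 11 were tested in untimed KLS cells, with 1 called higher and 5 lower. Dmd, which encodes dystrophin, had a log2 fold change of -2.20, the sarcoglycan genes Sgcb -1.74 and Sgce -1.27, and the dystrobrevin gene Dtnb -1.28. Sntb2, a syntrophin gene, was higher, at 69.2 against 32.5 CPM. In untimed GMPs 2 of 10 were higher and 3 lower, led by Sntb1 at -2.24 and Sgcb at -2.12. At 3 w.p.i. none was called for Daxx loss alone, and in GMPs of the Pu.1 line 5 of 16 were higher, led by Sgcd at 1.08, with 0 lower.

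Of 30 genes of ionotropic glutamate receptors and AMPA receptor partners, 20 were tested in untimed KLS cells, of which 1, Grin2b, was lower, at 0.356 against 3.48 CPM. In untimed GMPs 2 of 9 were higher, Dlg4 (0.90), a postsynaptic scaffold gene, and the kainate receptor gene Grik5 (0.72). For Daxx loss alone at 3 w.p.i., neither Gria3 nor any gene of this list was called. In KLS cells labelled DKO against Daxx +/+, Grik5 (-0.86) and Dlg4 (-0.77) fell along with Gria3. In the Pu.1 line, where Gria3 was lower, Gria2 (2.22) and Gria4 (2.10) were called higher in KLS cells and 12 of 30 list genes in GMPs, with 0 lower.

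Of 30 transglutaminases and coagulation factors, 11 were tested in untimed KLS cells, with 1 called higher and 5 lower. F10, which encodes coagulation factor X, was higher in untimed KLS cells (3.41, from 1.02 to 11.7 CPM) and GMPs (1.15). Tgm2, another transglutaminase gene, fell by 5.99 in KLS cells from 12.1 to 0.0442 CPM. The anticoagulant genes Pros1 (-3.34 and -3.62) and Thbd (-3.32 and -2.36) fell in both cell types. F10 was also higher in KLS cells labelled DKO than in Daxx F/F (2.93; limma adjusted p = 0.0287), where F13a1 was lower in every library.

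Markers of other cells were set beside the 4 genes. In untimed KLS cells 5 of 10 monocyte and macrophage markers tested were higher in Daxx F/F and 0 lower, led by Cd68 (3.08) and Csf1r (2.16). Their summed level was 221 and 240 CPM against 110 and 128 CPM, with the macrophage gene C1qa at 0 in these 4 libraries. In untimed GMPs 3 of 11 were higher and 7 lower, and their sum was 411 and 459 CPM in Daxx F/F against 1170 and 1387 CPM in Daxx +/+. The summed monocyte markers and F13a1 thus moved in the same direction in each untimed comparison, although in KLS cells F13a1 changed by a ratio of 103. Of 12 megakaryocyte and platelet markers, 8 were tested in untimed KLS cells, with 1 higher and 5 lower. Whether other cells took part in these levels was not tested.

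Untimed Daxx F/F KLS libraries also stood apart by their gate markers. Of 10 KLS markers 1 was higher and 9 were lower, with sums of 1325 and 1390 CPM against 5813 and 5915 CPM in Daxx +/+. Of 10 GMP markers, which share Kit and Cd34 with the KLS markers, 7 were higher and 2 lower, with sums of 2523 and 3087 CPM against 1369 and 1394 CPM. Daxx +/+ GMPs of the same set, with GMP marker sums of 11066 and 11135 CPM, held 1153 and 1211 CPM of Gria3, below the 2608 and 2737 CPM of Daxx F/F KLS cells, and 1292 and 1336 CPM of F13a1, below their 1557 and 1899 CPM. Neuron markers, relevant to Pcdh11x and Gria3, summed to 4.06 and 6.15 CPM in untimed Daxx F/F KLS cells and to 3.70 and 4.13 CPM in Daxx F/F GMPs. Snap25, Nefl and Nefm were at 0 in both groups, while other genes of the list had reads. Skeletal muscle markers, relevant to Sgcz, summed to at most 22.5 CPM there, with Myh1 and Myod1 at 0 and reads in other listed genes. Whether neuron or muscle cells took part in these levels was not tested. In the Pu.1 line neuron markers summed to 57.5 to 954 CPM, and 5 of 15 were called higher in its GMPs.

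**Figure D5:**
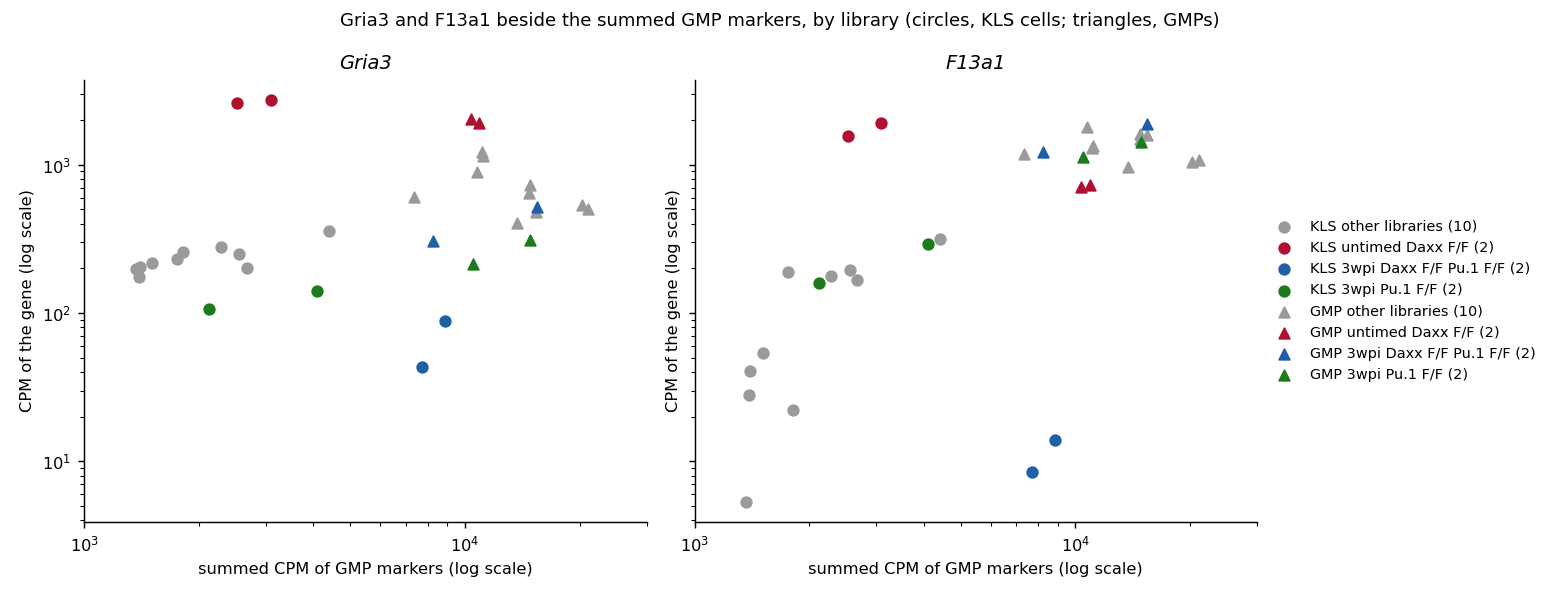
Each point is 1 library (circles, KLS cells; triangles, GMPs), with the summed CPM of 10 GMP markers on the x axis and the CPM of Gria3 (left) or F13a1 (right) on the y axis, both on log scales. Untimed Daxx F/F KLS cells (red circles) have marker sums of 2523 and 3087 CPM and the 2 highest Gria3 values, while KLS cells labelled DKO (blue circles) have sums of 7696 and 8857 CPM and Gria3 at 43.5 and 88.1 CPM.

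The 4 nearest annotated protein-coding genes on each side of each gene were also examined. Around Pcdh11x, 2 of 8 neighbours passed the filter on low values in the untimed comparisons. Nap1l3 was called higher in GMPs (2.98) but reached at most 10.8 CPM in any library, and Cldn34c1 was lower in KLS cells (-0.90) and GMPs (-1.34). Around Sgcz, 4 of 8 were tested in untimed KLS cells, with Lonrf1 (-0.78) and Dlc1 (-2.55) lower and none higher, and 3 were tested in untimed GMPs, with Micu3 (0.65) higher and none lower. Around Gria3, 5 of 8 were tested, with 0 higher in either untimed comparison and 1 lower in KLS cells and 2 in GMPs. The flanking gene Thoc2, which encodes an mRNA export factor, had log2 fold changes of -0.13 and -0.09. Around F13a1, 6 of 8 were tested, with 2 higher and 1 lower in untimed KLS cells and 1 higher and 3 lower in untimed GMPs. Ly86, a monocyte and B-cell surface gene, was higher in KLS cells (1.07) and lower in GMPs (-2.57), and Ssr1, a gene of the translocon of the endoplasmic reticulum, likewise (0.57 and -0.55), the directions of F13a1. In the 8 comparisons at 3 w.p.i. no tested neighbour of Pcdh11x was called by limma. Dlc1 was called higher in Pu.1-line GMPs (1.38), as Sgcz was, and 6030498E09Rik, near Gria3, was called lower in KLS cells labelled DKO against Daxx +/+ (-1.31) and Daxx F/F (-1.24), as Gria3 was. The other calls at 3 w.p.i. were Tusc3 (-0.67, KLS cells labelled DKO against Daxx +/+) and Msr1 (3.00, Pu.1-line KLS cells) near Sgcz, and Rreb1 (-0.86, Pu.1-line GMPs) near F13a1. Genes overlapping the 4 genes were listed at 0 in all libraries, other than the Sgcz antisense gene Gm40493, at 4.98 CPM or less. The F13a1 antisense genes Gm49144 and Gm30489 have no values under these names among the genes present in every table used. Because the strand setting of counting is not given in the sources used here, reads of the 2 strands cannot be told apart.

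Across all 32 libraries, the pattern of log2(CPM + 1) most like that of each gene was sought among 17183 genes with a mean of 1 CPM or more. The libraries differ in depth, come from separate tables and in part share animals, so the coefficients are descriptions. For Pcdh11x the nearest were Gstp3 (Pearson r = 0.865), Rnf185 (0.797) and Nrg4 (0.796). Gstp3 was low, averaging 0 and 0.212 CPM in untimed Daxx +/+ KLS cells and GMPs, and 4.26 and 15.5 CPM in Daxx F/F. Rnf185 averaged 25.4 and 36.7 CPM in untimed Daxx +/+ KLS cells and GMPs, and 35.3 and 60.0 CPM in Daxx F/F. Its change was far smaller than that of Pcdh11x. Nrg4, which encodes a neuregulin ligand, averaged 22.3 CPM in untimed Daxx +/+ KLS cells and 518 in Daxx F/F, and 36.1 and 495 CPM in GMPs. For Sgcz they were Pde11a (0.957), a cyclic nucleotide phosphodiesterase gene, Fbp2 (0.943), a fructose-bisphosphatase gene of gluconeogenesis, and Gm29418 (0.904). Pde11a averaged 3.87 and 2.11 CPM in untimed Daxx +/+ KLS cells and GMPs, and 189 and 327 CPM in Daxx F/F.

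For Gria3 the nearest included Tfec (0.913) and Gng12 (0.908), and for F13a1 they were Cfp (0.934), which encodes properdin of the complement system, Rassf4 (0.924) and Hk3 (0.904), a hexokinase gene. Of these, 0, 0, 1 and 0 of the 3 nearest genes of Pcdh11x, Sgcz, Gria3 and F13a1 were again among the 3 nearest without the untimed libraries (24 libraries left), so the order rests largely on the untimed cells. Gria3 and F13a1 had r = 0.72 with each other and Pcdh11x and Sgcz r = 0.642. Without the untimed libraries these were 0.812 and 0.222.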

How the data were processed

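RNA-seq values of sorted KLS cells and GMPs were taken from 6 gene tables. Per the labels and the study's methods, the authors trimmed reads with cutadapt 1.13, aligned them to mm10 with STAR 2.5.3 using GENCODE annotation and divided counts by DESeq2 1.16.1 size factors. The deposited signal is therefore a normalized count. The counting tool and its strand setting are not given in the sources used here. Whole reads were recovered from the value steps, with 100% of values whole within 0.01. Columns were matched to labels by name, which left 79 of 111 columns unused and 27 of 59 samples (24 w.p.i., LTHSC, MPP3, MPP4) not analysed here. Each table was fitted across all genes with limma 3.58.1 (R 4.3.3) on log2(normalized count + 1), for genes with a mean of 10 or more, with all groups of the table in the fit and Benjamini-Hochberg adjustment. A call is an adjusted p under 0.05. The fold changes understate differences of low genes. CPM is recovered reads per 1000000 of a library's total. Alternatives were pseudocounts of 0.5 and 5, no filter, TMM rescaling, edgeR 4.0.16 and DESeq2 1.42.0 on recovered reads. Others were a replicate block on numbered libraries only, and leaving out each library. The scripts were tested on simulated data. The 4 genes, the gene lists (at most 4 named genes per list, by size of change) and the tests were chosen with earlier results of these data known. The 500 kb limit for long genes was chosen after the data were seen. Positions come from GENCODE M21, while the study names an earlier GENCODE release for its own processing. A gene among those most like Gria3 in pattern is not reported here.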

Additional observations from a re-analysis of the deposited data

Results flagged for a closer look

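The same contrast, Daxx F/F against Daxx +/+, gave opposite directions in different libraries for 2 of the 4 genes, with every library of a group on the stated side. Gria3 was higher in untimed KLS cells (log2 fold change 3.89) and untimed GMPs (0.86). It was lower but not called in KLS cells at 3 w.p.i. (-0.44; limma adjusted p = 0.462). There 9.16% of genes were likewise lower in every Daxx F/F library. F13a1 was higher in untimed KLS cells (7.15) and lower in untimed GMPs (-0.75). Every Daxx F/F library was higher for 32.9% of genes in untimed KLS cells and 33.1% in untimed GMPs, and lower for 34.1% in untimed GMPs. The differences in direction were not tested, because the untimed contrasts chose the genes. With at most 3 libraries per group, single libraries were not checked against their group.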

How the results depend on the processing

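Of 428 log2 fold changes of the 4 genes under alternatives, 380 kept direction and call, 17 gained a call, 12 lost it and 19 changed sign, and the cause was not tested. Replicate numbers in the labels did not pair libraries (correlations of deviations -0.21 to 0.13). In KLS cells at 3 w.p.i. the replicate block also left out the unnumbered Daxx +/+ library. Shifts there come from both changes and cannot be split. With the replicate block, all genes called moved from 39 to 81 (Daxx, KLS, 3 w.p.i., where F13a1 turned to 0.48) and from 2340 to 1283 (DKO against Daxx F/F, KLS), F13a1 was called against Daxx +/+ and against Daxx F/F in KLS cells labelled DKO, and crossed numbers in untimed GMPs, tried after seeing the data, gave 4921 calls in place of 4209. No paired analysis was possible for GMPs at 3 w.p.i. and the Pu.1 line because their columns carry animal numbers, each in 1 genotype, and no label ties these to a replicate number. Without the filter, untimed KLS calls fell from 3118 to 1751. Pu.1-line KLS calls moved from 190 to 784 with TMM, 1687 with edgeR and 1357 with DESeq2, and calls among the 4 genes from 1 to 2 under each, the added gene being Sgcz. F13a1 there was 0.0555 with edgeR. DESeq2 gave 342 for 39 (Daxx, KLS), 80 for 13 (Daxx, GMPs) and 263 for 40 (DKO against Daxx +/+, GMPs). For DKO against Daxx F/F in GMPs, 8 calls became 17 (pseudocount 5), 13 (no filter), 18 (TMM), 20 (edgeR) and 280 (DESeq2, with 1 of the 4 genes), and Sgcz turned to 0.0885 with edgeR and 0.12 with DESeq2.

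Leaving out 1 library moved all genes called between 419 and 3290 (untimed KLS, lowest without Daxx F/F 2), 2162 and 4448 (untimed GMPs, lowest without Daxx +/+ 2), 8 and 137 (Daxx, KLS, highest without the unnumbered Daxx +/+), 574 and 3195 (DKO against Daxx +/+, KLS, lowest without DKO 1), 672 and 2481 (DKO against Daxx F/F, KLS, lowest without DKO 1), 13 and 6905 (Pu.1, KLS, highest without Pu.1 F/F a), 4 and 16 (Daxx, GMPs), 2 and 90 (DKO against Daxx +/+, GMPs), 0 and 71 (DKO against Daxx F/F, GMPs), and 151 and 8163 (Pu.1, GMPs, highest without Pu.1 F/F b). Calls among the 4 genes ranged from 2 to 3 (DKO in KLS cells, both comparisons), 0 to 3 (Pu.1, KLS), 0 to 1 (DKO in GMPs, both comparisons) and 0 to 4 (Pu.1, GMPs). Log2 fold changes that changed sign ranged, for F13a1, from -1.68 to 0.23 (Daxx, KLS), -0.88 to 0.44 (Pu.1, KLS), -0.28 to 0.10 (Daxx, GMPs), -0.23 to 0.41 and -0.19 to 0.45 (DKO, GMPs, against Daxx +/+ and Daxx F/F) and -0.30 to 0.35 (Pu.1, GMPs). For Sgcz they ranged from -0.76 to 0.0170 (DKO against Daxx +/+, KLS), -1.68 to 0.33 and -1.14 to 0.87 (DKO, GMPs), and for Gria3 from -0.0308 to 0.48 (Daxx, GMPs). With 2 or 3 libraries per group, a lone library is assumed to vary like the other groups. Low genes such as Sgcz, at 0.925 to 4.04 CPM in GMPs labelled DKO, allow only wide intervals.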
